A study of Mus musculus with 6 samples.

Results

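Blood group antigens are carried by proteins and sugars of the red cell surface. The 9 genes described here encode the anion exchanger of the red cell membrane, a glycophorin, the Rh complex with its neighbours, the Kell and Scianna antigens and a surface marker of immature red cells. They are Slc4a1, Gypc, Rhag, Rhd, Icam4, Cd47, Kel, Ermap and Cd24a, taken by their mouse symbols from the 27179 genes in each count file, and all 9 were found. The choice used no measured value of the genotype comparison as a rule, but it was made with earlier results of these data known.

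RNA was measured in circulating erythrocytes of 3 heterozygous Nxf1+/C587R males and 3 Nxf1+/+ wild-type littermate males on the BalB/c background. Nxf1 moves messenger RNA out of the nucleus, and the mutants carry 1 C587R allele beside 1 wild-type allele. The labels name no Cre or transgene. Each library came from 1 animal, and each of 3 labelled batches held 1 mutant and 1 wild-type library. The animals' age is not given in the sources used here.

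Mature red cells have no nucleus and make no new RNA, so their transcripts are what was left from the erythroblast and reticulocyte stages. Band 3, the product of Slc4a1, exchanges chloride for bicarbonate and anchors the membrane to the skeleton through ankyrin. It sits in one assembly with the Rh proteins, glycophorins, Icam4 and Cd47. During reticulocyte maturation many surface proteins are shed or degraded, and loss of the heat-stable antigen Cd24a is used to stage mouse red cells.

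Total counts ran from 14636739 to 15790336 per library, of which globin genes took 88.1% to 89.3%, so the defining transcripts of red cells dominated all 6 libraries. Transcripts of other cells were present too. The summed counts of 12 hepatocyte markers were 1507 to 3317 in the mutants and 1 to 90 in wild type, and 10 of the 12 were called higher. The 90 counts, in wild-type library 1, were all of Ttr. Of 8 globin genes tested Hbb-bs was called higher (edgeR adjusted p = 0.0492), and it missed the threshold when batch was a term (0.0563). The summed counts of 4 general leukocyte markers were 280 to 488 in the mutants and 522 to 594 in wild type, with 0 of 4 called by edgeR (0 at an unadjusted p under 0.05), and Ptprc, the gene of CD45, had at least 121 counts in every library. TMM factors, which set the scale of each library from the bulk of its genes, were 0.720, 0.780 and 1.06 in the mutants, against 1.23, 1.11 and 1.23 in the wild-type mice. Wild-type library 1 had the most genes with at least 10 counts, 4096 against 2103 to 3401 in the other libraries. The scale therefore bears on every level below, and the results turn in part on the choice between TMM scaling and total counts.

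RefSeq promoter sequences (GRCm38.p6, 250 bases before to 50 after the start site) were at hand for 6 of the 9 genes, Ermap, Rhd, Kel, Icam4, Cd47 and Rhag. They were searched on both strands for GATA words (AGATAA, or else TGATAA, or else AGATAG, or else TGATAG), the kind of site bound by the erythroid factor Gata1, and for CACCC words (CCACACCC, or else CCGCACCC, or else CCACGCCC, or else CCGCGCCC), the kind bound by Klf1. A GATA word was found in 5 of the 6 genes and a CACCC word in 2 of the 6. Of all 32851 promoters of this length in the table, 29.8% held a GATA word and 13.9% a CACCC word. The promoters of Ermap (chr4:119189946-119190245, minus strand), Kel (chr6:41704276-41704575, minus strand), Rhd (chr4:134864286-134864585, plus strand) and Rhag (chr17:40810899-40811198, plus strand) are printed on the strand of the gene because they show where the words lie in genes of the Kell, Scianna and Rh systems, and capitals mark the matches, none of which overlapped another.
Ermap: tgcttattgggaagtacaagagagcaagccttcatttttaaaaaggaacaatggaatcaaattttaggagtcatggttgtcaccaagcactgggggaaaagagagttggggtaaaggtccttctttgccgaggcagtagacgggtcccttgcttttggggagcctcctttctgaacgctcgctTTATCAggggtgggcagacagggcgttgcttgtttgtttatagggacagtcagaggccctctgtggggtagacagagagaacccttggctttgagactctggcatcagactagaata
Kel: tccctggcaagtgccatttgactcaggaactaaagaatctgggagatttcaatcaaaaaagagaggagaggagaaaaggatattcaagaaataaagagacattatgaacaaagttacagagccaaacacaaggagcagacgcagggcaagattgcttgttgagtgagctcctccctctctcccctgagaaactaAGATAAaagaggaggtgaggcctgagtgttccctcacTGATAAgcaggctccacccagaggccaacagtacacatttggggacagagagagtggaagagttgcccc
Rhd: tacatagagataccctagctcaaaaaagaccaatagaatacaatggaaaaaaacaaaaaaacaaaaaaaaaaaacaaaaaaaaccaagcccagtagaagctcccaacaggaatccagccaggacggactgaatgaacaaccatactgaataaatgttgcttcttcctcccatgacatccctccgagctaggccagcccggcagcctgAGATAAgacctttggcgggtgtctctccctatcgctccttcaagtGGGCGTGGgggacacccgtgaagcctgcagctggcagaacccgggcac
Rhag: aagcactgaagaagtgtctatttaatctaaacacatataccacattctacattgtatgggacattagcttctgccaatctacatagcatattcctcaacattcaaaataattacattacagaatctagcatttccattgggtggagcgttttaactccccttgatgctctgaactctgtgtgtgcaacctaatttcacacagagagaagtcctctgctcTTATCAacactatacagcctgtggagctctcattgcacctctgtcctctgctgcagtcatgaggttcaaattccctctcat
With the first base of the listed start site as position 0, the GATA words began at −67 in Ermap, −56 and −19 in Kel, −43 in Rhd and −31 in Rhag. The gene span of Rhag given below begins before its listed start site, so its GATA word lies inside that span. The CACCC word of Rhd began at 2 and lay on the minus strand of the gene. Icam4 also held both words, GATA at −43 and CACCC at −64, while both listed Cd47 start sites held neither. The word TATAAA was also searched, and of the 6 genes Ermap held it, on the minus strand at −31, as did 13.6% of all promoters (not in capitals). A match of letters does not show that a factor was bound.

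The levels of the 9 genes spanned a wide range, and Cd24a and Slc4a1 made up most of it. Together these genes took 90.5% to 91.4% of the counts of the 9 in the mutants and 89.5% to 92.2% in wild type. Among all genes they ranked 72 and 74 by mean share of counts, while Kel ranked 422, Ermap 517, Cd47 531, Rhd 802, Gypc 1259, Rhag 1390 and Icam4 4524. On a per-length scale (TPM, computed from the counts and the deposited gene lengths), Cd24a stood at 21.3 ± 5.20 TPM in the mutants and 46.1 ± 8.41 TPM in wild type (SD, n = 3 each). Slc4a1 followed at 10.2 ± 2.62 TPM in the mutants and 16.1 ± 3.07 TPM in wild type.

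The next levels were those of Kel at 1.09 ± 0.0789 TPM in the mutants and 1.78 ± 0.260 TPM in wild type, and of Cd47 at 0.970 ± 0.204 TPM in the mutants and 1.81 ± 0.752 TPM in wild type. Rhd stood at 0.709 ± 0.310 TPM in the mutants and 1.35 ± 0.409 TPM in wild type. Ermap, Gypc, Rhag and Icam4 were all under 1.2 TPM in every library. Neighbours in the order overlapped in their library values from Kel to Rhd and from Ermap to Gypc in the mutants, and from Cd47 down to Icam4 in wild type, so their order is not resolved there. The steps between Cd24a, Slc4a1 and the rest were free of overlap in both genotypes.

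**Figure D1:**
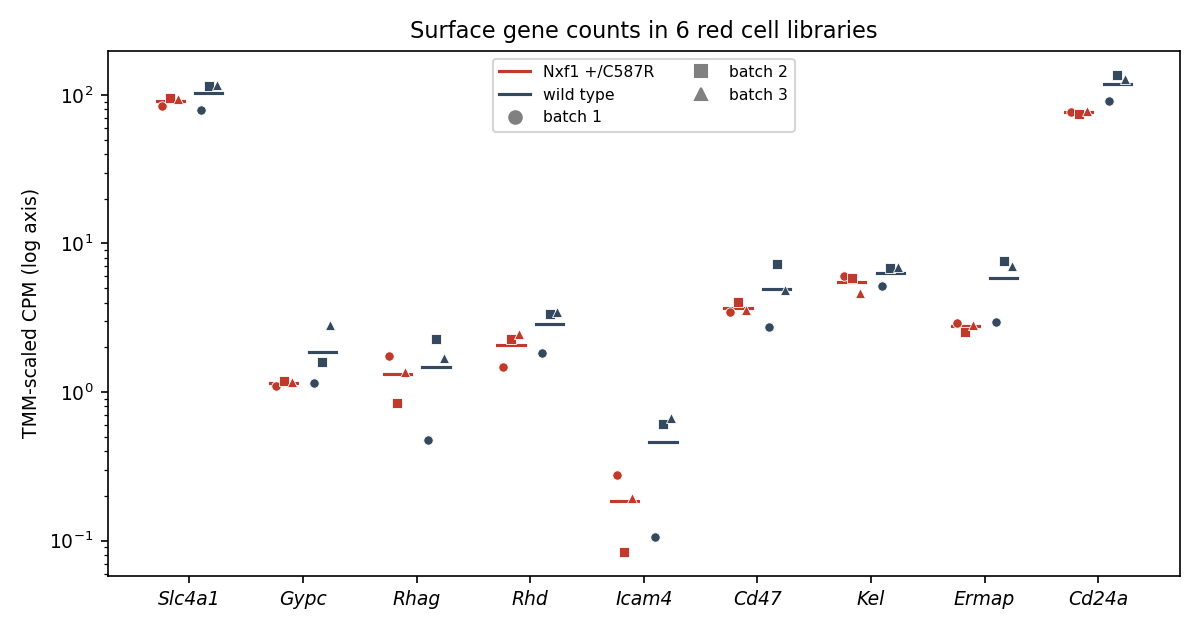
TMM-scaled CPM (log axis) of the 9 surface genes, with 1 point per library, shape for batch and a line at the mean of 3 libraries. Cd24a and Ermap are the genes whose mutant points all lie below the wild-type points, and wild-type library 1 (circles) lies below the other wild-type libraries for every gene.

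In the genotype comparison 1 of the 8 genes tested passed, and it was lower in the mutants (edgeR quasi-likelihood test, TMM scaling, adjusted p under 0.05). Of all 2823 genes tested, 1.06% were lower and 5.99% higher. All 8 log2 fold changes were negative, with a median of −0.44, while 54.9% of all genes tested were negative with a median of −0.06. The ninth gene, Icam4, had too few counts for the test. In bulk red cells, fewer cells that hold a transcript and less of it per cell cannot be told apart.

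Cd24a, a small lipid-anchored glycoprotein of immature red cells, B cells and granulocytes, was the gene that passed. Its counts were 842, 880 and 1212 in mutant libraries 1 to 3 and 1719, 2241 and 2467 in wild-type libraries 1 to 3. With TMM scaling these were 77.1, 74.0 and 78.2 CPM in the mutants, against 90.3, 137 and 127 CPM in the wild-type mice. The mutant values lay close together and below every wild-type value. The log2 fold change was −0.63 (SE 0.17, 95% interval −0.98 to −0.27, edgeR adjusted p = 0.0284), and the exact permutation test of the CPM gave p = 0.1 (n = 3 each), the smallest this design allows. With batch as a term it was −0.61 (SE 0.18, adjusted p = 0.0106), a lower p without a lower SE. With total counts it was −1.10 (adjusted p = 0.000450). DESeq2 gave −0.57 without a call (adjusted p = 0.0823), and when libraries were left out singly the edgeR call held only without wild-type 1 (adjusted p = 0.00192, and 0.121 to 0.303 without each of the others).

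Ermap carries the Scianna blood group antigens and is an immunoglobulin-like protein of the erythroid membrane. It had 32, 30 and 44 counts in the mutants, against 56, 124 and 136 in the wild-type mice, or 2.93, 2.52 and 2.84 CPM in the mutants, against 2.94, 7.57 and 7.01 CPM in the wild-type mice. The lowest wild-type value, that of library 1, was just above the highest mutant value, and the other wild-type values were far above. Its log2 fold change was −1.07 (SE 0.31, 95% interval −1.74 to −0.41), the lowest of the 8, and it missed the threshold (edgeR adjusted p = 0.0516). It passed with batch as a term (−0.998, adjusted p = 0.00459), with which 2.13% of all genes tested were lower and 6.87% higher, and with total counts (−1.54, adjusted p = 0.00832). It also passed without wild-type library 1 (−1.39, adjusted p = 0.000712). The call was absent with any other library left out (adjusted p 0.201 to 0.254). It was also absent without batch 2 or batch 3 (−0.75 and −0.86, adjusted p = 0.411 and 0.397). DESeq2 (−1.02, adjusted p = 0.0651) and limma-voom (−0.94, adjusted p = 0.159) did not call Ermap.

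Kel encodes the Kell antigen, a zinc endopeptidase of the red cell surface. Its counts were 66, 70 and 72 in the mutants, against 98, 112 and 134 in the wild-type mice, which became 6.04, 5.89 and 4.65 CPM in the mutants, against 5.15, 6.83 and 6.90 CPM in the wild-type mice. The raw counts were separate and the TMM-scaled values overlapped. The log2 fold change was −0.19 (SE 0.22, 95% interval −0.65 to 0.26, edgeR adjusted p = 0.734), and with total counts −0.69 (adjusted p = 0.0701). In GRCm38 (mm10), Kel spans chr6:41686329-41704334, Ermap chr4:119175457-119190013 and Cd24a chr10:43579169-43584265.

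Slc4a1 had 925, 1138 and 1447 counts in the mutants, against 1508, 1891 and 2251 in the wild-type mice. With TMM scaling these were 84.7, 95.7 and 93.4 CPM in the mutants, against 79.2, 115 and 116 CPM in the wild-type mice. Wild-type library 1 was the lowest of all 6 and the other wild-type libraries were the highest. The log2 fold change was −0.18 (SE 0.17, 95% interval −0.54 to 0.18, edgeR adjusted p = 0.660). With total counts it was −0.65 and passed (adjusted p = 0.0286), on a scale where the median of all genes tested was −0.53. Gypc encodes glycophorin C, which carries the Gerbich antigens and ties the membrane to the skeleton through protein 4.1. It had 12, 14 and 18 counts in the mutants, against 22, 26 and 55 in the wild-type mice, so that 1 library, wild-type 3, stood above the rest. Its log2 fold change was −0.70 (SE 0.35, 95% interval −1.43 to 0.04, edgeR adjusted p = 0.304), and −0.25 without wild-type library 3. In GRCm38 (mm10), Slc4a1 spans chr11:102348820-102365281 and Gypc chr18:32528320-32560034.

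The Rh complex was measured on few counts. Rhag, the Rh-associated glycoprotein that is needed to bring Rh proteins to the surface, had 19, 10 and 21 counts in the mutants, against 9, 37 and 33 in the wild-type mice. The lowest and the highest library were both wild type. Its log2 fold change was −0.16 with a wide interval (−1.19 to 0.87, edgeR adjusted p = 0.910), and 0.28 without wild-type library 2. Rhd, the single Rh antigen gene of the mouse, had 16, 27 and 38 counts in the mutants, against 35, 55 and 67 in the wild-type mice. The counts overlapped in mutant 3 and wild-type 1, and its log2 fold change was −0.46 (95% interval −1.10 to 0.17, edgeR adjusted p = 0.474). Rhag spans chr17:40811099-40844094 and Rhd chr4:134864536-134896172.

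Cd47 gives a signal against engulfment by macrophages. It had 38, 48 and 55 counts in the mutants, against 52, 119 and 94 in the wild-type mice, with a log2 fold change of −0.42 (95% interval −1.04 to 0.21, edgeR adjusted p = 0.525). The value was −0.02 without wild-type library 2. Icam4, an adhesion protein that carries the LW antigens, had 3, 1 and 3 counts in the mutants, against 2, 10 and 13 in the wild-type mice, 7 against 25 in all. In a fit with no filter on low counts its log2 fold change was −1.26 (edgeR adjusted p = 0.632). All 1110 exonic bases of Icam4 lie within exons of the antisense gene Gm47079 in GENCODE vM21, and reads of the strands cannot be told apart in counts with no stated strand setting. Cd47 spans chr16:49851328-49912503 and Icam4 chr9:21029432-21030596.

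**Figure D2:**
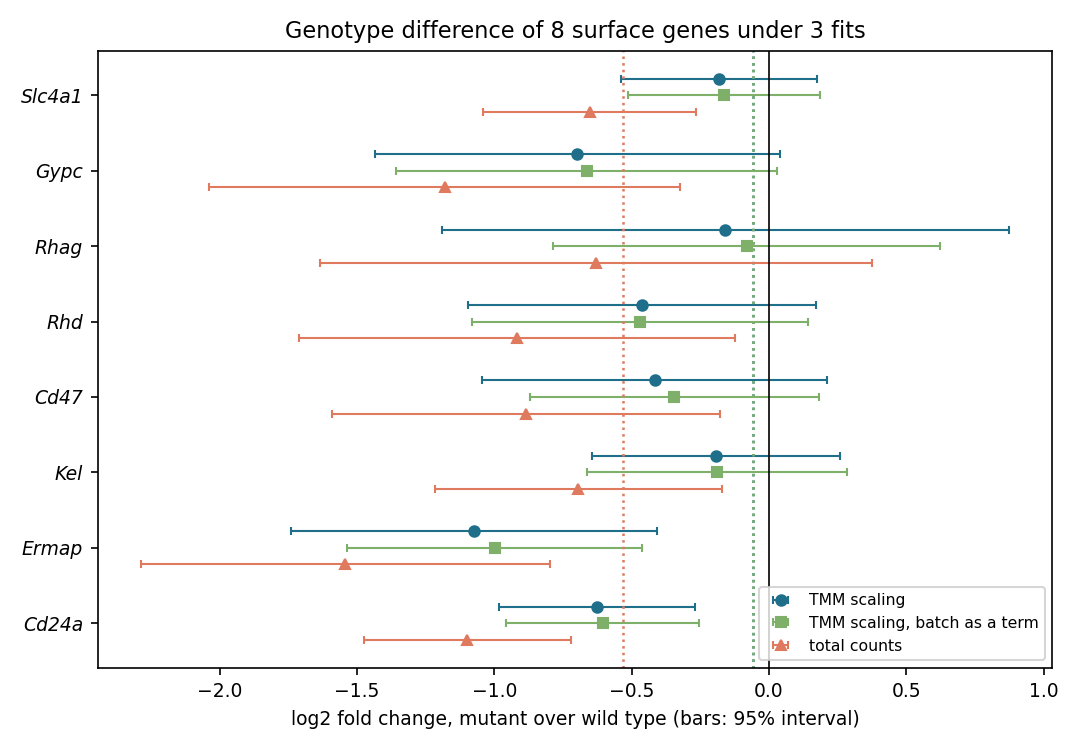
Log2 fold changes (mutant over wild type) of the 8 tested genes with 95% intervals under TMM scaling, TMM scaling with batch as a term, and total counts, with dotted lines at the median of all genes tested. Every point lies below 0, Ermap and Cd24a have intervals below 0 under all 3, and total counts move all points lower together with the median, to −0.53.

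The scale moved the calls. With total counts 3 of the 8 genes were lower, Cd24a, Ermap and Slc4a1, where 8.68% of all genes tested were lower, 4.07% were higher and 85.8% were negative. The median of the 8 was −0.90 and that of all genes −0.53, so relative to this shift the 8 were lower by a similar amount as with TMM scaling. As shares of total counts, 4 of the 8 tested genes had every mutant below every wild-type library (Gypc, Kel, Ermap and Cd24a), as did 31.5% of all genes tested, while 5.31% had every mutant above. As shares of counts outside the globins it was again 4 of 8, against 29.1% of all genes below and 5.81% above. With TMM-scaled CPM 2 of the 8 did, Ermap and Cd24a, as did 11.1% of all genes tested, with 12.3% above. When counts outside the globins were the library size, Cd24a, Ermap and Slc4a1 were again lower (edgeR adjusted p = 0.000614, 0.0113 and 0.0413), with 6.42% of genes lower and 4.04% higher. With total counts and batch as a term 4 of the 8 were lower, Gypc being the fourth (adjusted p = 0.0431), and 12.8% of all genes were lower and 4.29% higher.

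Other settings changed the count of called genes too. DESeq2 called 0 of the 8 (Ermap and Cd24a had an unadjusted p of 0.00452 and 0.00586), with 0.39% of all genes lower and 6.27% higher. With no filter on low counts 1 was lower, Ermap, with 0.5% of genes lower and 2.33% higher. With a mean count of at least 50 both Ermap and Cd24a were lower, where 7.36% of genes were lower and 9.91% higher. Both were also lower without wild-type library 1, with 2.55% of genes lower and 6.64% higher, and without batch 1, with 1.22% lower and 4.93% higher. Neither was called with any other library or batch left out.

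A ratio of counts within a library needs no scaling factor, and Slc4a1 was used as the denominator because it is an abundant product of the late erythroid stages. Per 100 Slc4a1 counts, Cd24a had 91.0, 77.3 and 83.8 counts in the mutants, against 114, 119 and 110 in the wild-type mice. The mutant values were all below the wild-type values, at 84.0 ± 6.85 against 114 ± 4.46 (SD, n = 3 each). Ermap had 3.46, 2.64 and 3.04 per 100 in the mutants, against 3.71, 6.56 and 6.04 in the wild-type mice, again without overlap. Gypc had 1.30, 1.23 and 1.24 in the mutants, against 1.46, 1.37 and 2.44 in the wild-type mice, a narrow gap apart from wild-type library 3.

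The log2 differences of these ratios were −0.44 for Cd24a, −0.79 for Ermap and −0.41 for Gypc. Each had an exact two-sided permutation p of 0.1 (n = 3 each), the smallest possible, and an adjusted p of 0.267 over the 8 ratios. None passed, and none could have passed 0.05 whatever its values, so this test decides nothing here. In all, 3 of 8 ratios were lower in every mutant, as were 5.28% of the ratios of all genes tested to Slc4a1, and 0 of 8 were higher, against 14% of all. Kel kept nearly the same ratio, 6.09 ± 1.08 per 100 in the mutants and 6.12 ± 0.324 in wild type, with an exact permutation p of 1.0 (n = 3 each). The other ratios, of Rhag, Rhd, Icam4 and Cd47, overlapped between genotypes (exact permutation p 0.3 to 0.8, n = 3 each).

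**Figure D3:**
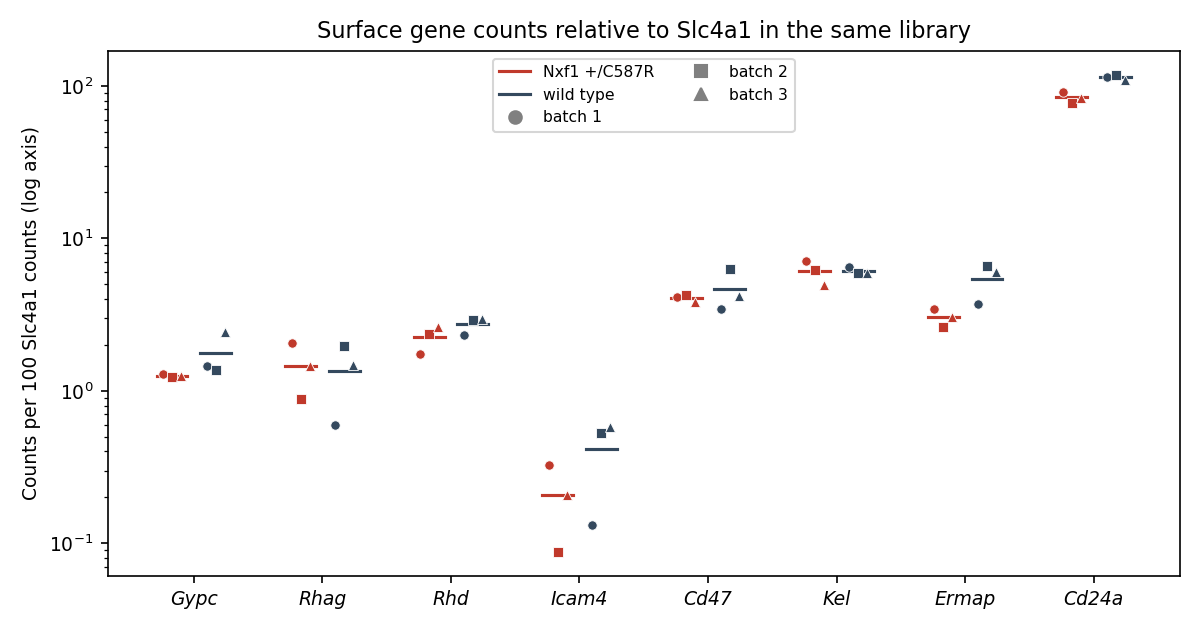
Counts per 100 Slc4a1 counts in the same library (log axis) for the other 8 surface genes, with 1 point per library and a line at the mean of 3. Mutant points lie below all wild-type points for Gypc, Ermap and Cd24a, and Kel has nearly equal means of 6.09 and 6.12.

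The 3 batches did not move alike. With TMM scaling all 9 genes were lower in the mutant in batches 2 and 3, and 4 of 9 in batch 1. Cd24a and Rhd were lower in each, by log2 differences of −0.23, −0.89 and −0.70 for Cd24a and −0.32, −0.55 and −0.48 for Rhd in batches 1 to 3. Ermap differed by −0.01 in batch 1, −1.57 in batch 2 and −1.29 in batch 3, and Gypc by −0.07, −0.42 and −1.25. With total counts 7 of 9 genes were lower in batch 1 and 9 of 9 in the other batches, and Rhag and Icam4 were the exceptions in batch 1. Cd24a then differed by −0.999, −1.40 and −0.92. Batch 1 holds wild-type library 1, which had the lowest Ermap, Cd24a and Slc4a1 CPM of its group.

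**Figure D4:**
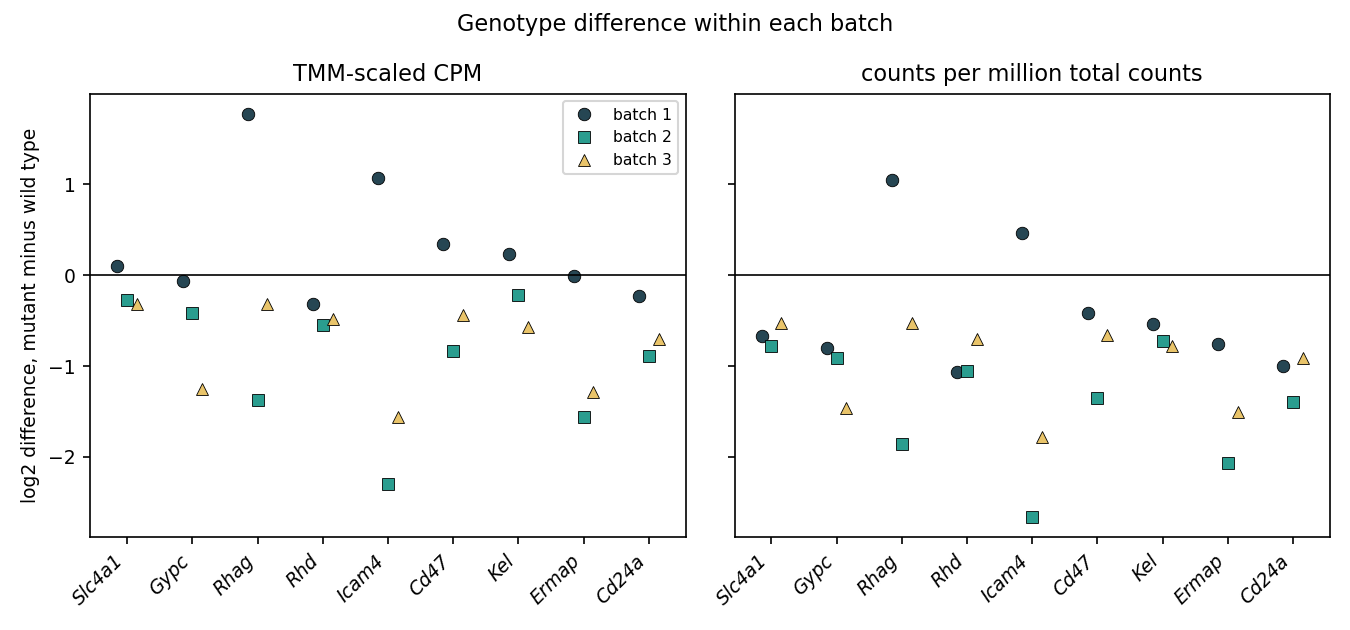
Log2 difference between the mutant and the wild-type library of each batch for the 9 genes, with TMM scaling (left) and CPM of total counts (right). Cd24a, Ermap, Gypc and Rhd lie below 0 in all 3 batches on both scales, with Ermap at −0.01 in batch 1 on the left.

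Other surface genes were taken from lists. Of 25 other blood group proteins 9 were tested, of which 1 was lower and 0 higher, with a median log2 fold change of −0.14. With total counts 2 were lower and the median was −0.62, the second being Bsg, basigin (−0.62, edgeR adjusted p = 0.0362). The gene lower on both scales was Prnp, the prion protein, which carries the KANNO antigen. It had 26, 44 and 43 counts in the mutants, against 146, 103 and 116 in the wild-type mice, without overlap. Its log2 fold change was −1.17 with an SE of 0.24 (edgeR adjusted p = 0.00263), and DESeq2 also called it (adjusted p = 0.00369). Its call was lost without batch 1 (−0.87, adjusted p = 0.0827) or batch 3 (−1.11, adjusted p = 0.0577). Slc14a1, the Kidd urea transporter, Aqp1, the Colton water channel, and Cd55, the Cromer complement regulator, had log2 fold changes of −0.98, −0.70 and −0.69 without passing (edgeR adjusted p = 0.300, 0.466 and 0.334). Of these, Aqp1 and Slc14a1 passed without wild-type library 1 (−1.07 and −1.37, adjusted p = 0.00101 and 0.0315). Neither passed with any other single library left out. Aqp1 was −0.40 without wild-type library 3 and Slc14a1 −0.59 without wild-type library 2 (adjusted p = 0.753 and 0.640).

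Partners of the membrane complex did not pass. Of 8 such genes 7 were tested, with 0 called by edgeR, 0 at an unadjusted p under 0.05, and a median of −0.09. With total counts 0 were called either, at a median of −0.56. Mpp1, the palmitoylated protein that binds glycophorin C and protein 4.1, had −0.33 (edgeR adjusted p = 0.520). It was −0.59 without wild-type library 1 (adjusted p = 0.0433) and −0.13 without wild-type library 3 (adjusted p = 0.909). Ca2, the carbonic anhydrase that supplies band 3 with bicarbonate, had −0.19 (adjusted p = 0.686). Of 8 enzymes that make carbohydrate antigens 1 was tested, Gcnt2, which branches the I antigen, at 0.46 (edgeR adjusted p = 0.289), and Abo, Fut2 and Gbgt1 had no count in any library.

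Surface markers of immaturity differed among themselves. Of 8 such genes 6 were tested, with 1 higher and 0 lower, and with total counts none was called in either direction by edgeR. Slc7a5, a large amino acid transporter, had a log2 fold change of 0.74 (SE 0.19, edgeR adjusted p = 0.0200), which was 0.24 with total counts and not called (adjusted p = 0.453). Its call was also lost without mutant 1, mutant 2, wild-type 2 or wild-type 3 (adjusted p 0.0602 to 0.104), and without batch 1 or batch 2 (adjusted p = 0.0664 and 0.210). Tfrc, the transferrin receptor that reticulocytes shed, had 100, 60 and 246 counts in the mutants, against 145, 577 and 706 in the wild-type mice. Its log2 fold change was −1.38 with a large error (SE 0.79, adjusted p = 0.481). Mutant library 3 lay above wild-type library 1. Cd36 and Itgb1 had −0.65 and −0.46 (adjusted p = 0.281 and 0.456), and Cd36 passed without wild-type library 1 (−0.95, adjusted p = 0.0248). Without wild-type library 2 Cd36 was −0.45 and did not pass (adjusted p = 0.579). Of 9 erythroid regulators 7 were tested and 0 called by edgeR (1 at an unadjusted p under 0.05), with a median of −0.04, and the members with the smallest p were Zfpm1 and Tal1 (−0.62 and −0.63, edgeR adjusted p = 0.207 and 0.303). With total counts these 2 were lower (−1.09 and −1.12, edgeR adjusted p = 0.0393 and 0.0499), where the median of the list was −0.53, like that of all genes.

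Cd24a and Cd47 are also made by white blood cells, whose transcripts moved in part with genotype. The summed counts of 8 B cell markers were 238, 276 and 157 in the mutants, against 365, 294 and 723 in the wild-type mice, and none was at 0 in a library. Of the 6 tested 0 were called, and Cd74 had the smallest p (log2 −0.82, edgeR adjusted p = 0.0645) and was lower once batch was a term (adjusted p of 0.0158). Of the same 6, 2 were lower with the batch term and 2 with total counts. The 10 T and NK cell markers summed to 21 to 36 counts in the mutants and 65 to 157 in wild type. Klrb1c was at 0 in every mutant and in wild-type library 1, and 2 of 3 tested were lower. They were Gzma and Tcf7 (log2 −2.10 and −2.005, edgeR adjusted p = 0.00428 and 0.00913). The Gzma call was lost without mutant library 3 (adjusted p = 0.0617) or batch 3 (−1.46, adjusted p = 0.212). The Tcf7 call was lost without mutant library 2 or 3 (adjusted p = 0.0580 and 0.0635), wild-type library 3 (0.119), batch 2 (0.0663) or batch 3 (0.134), and by DESeq2 (0.0642). The 11 neutrophil and monocyte markers summed to 1197 to 2288 in the mutants and 1937 to 2459 in wild type, and 11 platelet markers to 67 to 199 in the mutants and 168 to 310 in wild type. Of these, 0 of 7 and 0 of 6 tested were called by edgeR, with 1 and 0 at an unadjusted p under 0.05. The 1 was Lyz2, lysozyme, at a log2 fold change of 0.91 (edgeR adjusted p = 0.0711), which was higher once batch was a term (0.84, adjusted p of 0.00138). Camp, a neutrophil granule gene, was at 0 in 5 libraries and had 1 count in wild-type library 1. Their part in the Cd24a and Cd47 results was not tested. The lists were chosen with earlier results of these data known.

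The genes whose profile over the 6 libraries was most like that of Cd24a, out of 445 with a mean of at least 5 CPM, were Psmd4, a proteasome subunit (Pearson r = 0.981), and Bcl2l1, a survival factor of erythroid cells (0.978). For Ermap, out of 446, they were Marchf8 (0.988), Isg15 (0.984) and Stom, stomatin of the red cell membrane (0.983). These r values describe log2 (CPM + 1) in 6 libraries that share their scaling factors, and each is the top of a long search. None of these 5 genes passed the genotype test with TMM scaling (edgeR adjusted p 0.0595 to 0.291). Isg15 and Stom were lower once batch was a term (adjusted p of 0.0177 and 0.0122), and all 5 were lower with total counts (adjusted p 0.00162 to 0.0337). All 5 had their 2 highest values in wild-type libraries 2 and 3.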

How the data were processed

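Erythrocyte RNA of 6 mice was analysed, 3 Nxf1+/C587R and 3 Nxf1+/+. Per the labels' protocols, blood from cardiac puncture was pelleted through Ficoll, checked for purity by flow cytometry, and polyadenylated RNA was made into Illumina TruSeq libraries. The deposited files hold raw whole-number counts per Entrez gene with a gene length, per the file headers. The submitters' processing notes name CASAVA 1.8.2, Subread, featureCounts and build mm10, and the sources used here give no annotation, strand or multi-mapping setting. Symbols and gene positions came from RefSeq GRCm38.p6 (25275 of 27179 genes).

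The test was edgeR 4.0.16 in R 4.3.3 (quasi-likelihood F test with robust estimation, genotype as the only term, TMM scaling and genes kept by filterByExpr), with Benjamini-Hochberg adjustment over all 2823 genes tested and a threshold of 0.05. Standard errors were derived from the fold change and its F statistic. Ratios to Slc4a1 had 0.5 added to both counts for the test. Alternatives were other scalings, other filters, DESeq2 1.42.0, limma-voom (limma 3.58.1), batch as a term, and leaving out libraries or batches. Fits with counts outside globins as library size, and with total counts and batch together, were chosen after seeing the data. The labelled batch pairs 1 library of either genotype. Correlations of same-batch deviations from group means were −0.0944, −0.0593 and −0.0631. A lower p with batch as a term is therefore not read as batch spread removed. The tests were run on counts simulated from the fitted model, with the TMM scale taken as true and no batch effect. Such counts cannot check the choice of scale or the weight of a single library. The 9 genes and all lists were chosen with earlier results of these data known. The rule for other genes took up to 4 per list with the smallest p and the 3 genes most like Cd24a and Ermap, and results for some genes so chosen are not reported here. A count of 0 allows up to 3 counts, 0.190 to 0.205 CPM. Such floors cover counting error only.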

Additional observations from a re-analysis of the deposited data

How the results depend on the processing

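Of the 9 genes, of which 8 were tested, 1 was called lower with TMM scaling. This count was 0 with RLE scaling or DESeq2, and 3 with total counts or with counts outside globins as library size. It was 2 of 5 tested with a mean count of at least 50, and 2 with the replicate block. With total counts and the replicate block together it was 4, and with 1 library or 1 batch left out it ran from 0 to 2. The shares of all genes under these settings follow below. No gene of the 9 was called higher under any alternative. With no filter the 1 call was that of Ermap (adjusted p = 0.00728) and not Cd24a (adjusted p = 0.103). Over all 2823 genes tested 30 were lower (1.06%), against 19 with RLE scaling (0.67%), 245 with total counts (8.68%) and 11 by DESeq2 (0.39%). The number of genes tested changed with the filter. Lower genes were 82 without a filter (0.5% of 16396 tested) and 49 with a mean count of at least 50 (7.36% of 666). They were 60 with the replicate block (2.13%), 178 with counts outside globins (6.42% of 2771) and 361 with total counts and the replicate block (12.8%). The count of lower genes ran from 8 (0.245%, without mutant 3) to 77 (2.55%, without wild-type 1) with 1 library left out. It was 3 without batch 3 (0.106%). The 169 higher genes (5.99%) became 382 with no filter (2.33% of 16396) and 66 with a mean count of at least 50 (9.91% of 666). They were 112 with counts outside globins (4.04% of 2771), and 129 to 244 with libraries or batches left out (4.10% to 7.48%). With total counts 31.9% of the called genes were higher, against 84.9% with TMM scaling.

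With the replicate block Ermap, Cd74, Lyz2, Isg15 and Stom gained a call and Hbb-bs lost its call, and no other gene named in the text and tested changed its call. Of 149 alternative fold changes of the 8 tested genes, 120 kept direction and side of the threshold, 10 lost and 12 gained the call, and 7 changed sign. Icam4 had no main fit to compare with and is not among them. Where it was fitted it ran from −2.04 (without batch 1) to −0.94 (without mutant 2), with no call. Rhag had 0.0667 with limma-voom, −0.59 to 0.28 with 1 library left out, 0.527 without batch 2 and 0.0146 without batch 3. Kel ran from −0.32 to 0.00376 with 1 library left out and was 0.0773 without batch 3. Among the other genes the sign changed for Ca2 (0.00604 without batch 2) and Gcnt2 (−0.0713 with total counts and the replicate block). Among ratios to Slc4a1, that of Rhag was −0.38 against counts outside globins in place of 0.21, and ran from −0.27 to 0.557 with 1 library left out. In the same way that of Cd47 ran from −0.34 to 0.0945 and that of Kel from −0.14 to 0.12. The cause of these changes was not tested. With a mean count of at least 50 there was no value for Gypc, Rhag, Rhd and Icam4. The lowest counts were those of Icam4, 7 in all mutants and 25 in all wild-type libraries.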
